A study of Mus musculus with 6 samples.

Results

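Most of the genes studied here encode translation initiation factors of the mouse, while Eif4ebp1, Eif4ebp2, Eif4ebp3 and Eif4enif1 encode proteins that bind eIF4E. The members are the 53 genes, of 27179 in the deposited expression table, whose symbols begin with Eif1 to Eif6, leaving out the Eif2ak kinases. Of these, 49 passed the filter on low values and were tested. The other 4 (Eif2s3y, Eif4e1b, Eif1-ps3 and Eif2c5) were listed at 0 normalized reads in every library. Eif1-ps3 carries a pseudogene symbol, and Eif2c is an older name for the Argonaute family, so those last members share a name rather than a role with the factors.

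RNA was sequenced from wild-type (WT) mouse organoids of the small intestine. Such organoids are budding epithelial cultures, here grown in a drop of Matrigel with Intesticult medium. One group of 3 libraries came from organoids given 1e-07 M of the thyroid hormone T3 for 17 h, and the other group of 3 from organoids given the vehicle for the same time. The labels used here name no strain, age, vehicle substance, or number of animals or cultures. The p-values therefore rest on how far these 6 libraries scatter, and that scatter could be technical. Organoids hold epithelium without the other tissues of the gut wall, and in such bulk samples fewer cells of a type and less RNA per cell cannot be told apart.

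Translation of most messenger RNAs begins when the small ribosomal subunit, carrying the initiator transfer RNA, is brought to the capped end of the message, scans to a start codon and is joined by the large subunit. The eIF4F complex recognises the cap and unwinds the leader, eIF3 holds the small subunit, eIF2 delivers the initiator transfer RNA and eIF2B recharges eIF2 with GTP. Control falls mainly on a pair of steps, the phosphorylation of eIF2 by stress kinases and the release of the cap-binding protein eIF4E from its binding proteins by the growth kinase mTORC1. Both are changes of protein state that transcript levels do not show.

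Values are normalized reads, which the authors obtained by scaling each gene's reads to make libraries comparable and rounding to whole numbers. Column totals ran from 28197080 to 28611883 with vehicle and from 29510422 to 29974091 with T3, and the unscaled depth is not known. All 11 markers of intestinal epithelium were present, with summed levels of 180391 to 187073 normalized reads with vehicle and 211632 to 221057 with T3. Within that sum markers moved in opposite directions: Lgr5, a marker of stem cells, fell 2.19-fold (4506 to 2073, limma adjusted p = 8.29e-05), while the enterocyte genes Alpi and Vil1 rose 2.27-fold and 1.56-fold (adjusted p = 0.000689 and 3.66e-06). The part of these marker changes in the members' changes was not tested. The 7 markers of fibroblasts and muscle summed to 309 to 389 and 255 to 319, the 4 endothelial and neural markers to 41 to 56 and 24 to 37, and Ptprc, a marker of immune cells, averaged 0.333 and 1.33. The 4 immune markers summed to 82 to 113 with vehicle and 346 to 356 with T3, nearly all of it Itgam, and their part in the results was not tested.

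The initiation factors moved little and in both directions. A gene was called when limma's adjusted p, over the 13052 genes tested, was under 0.05. Of the 49 tested members 8 rose and 11 fell with T3, a share of 38.8% where 44.8% of all genes tested were called (24.0% higher and 20.8% lower). Their median log2 fold change was 0.0014, beside -0.0089 over all genes tested, and their median absolute change was 0.08 against 0.19. The share of members called was therefore near the background, although they were measured with more precision than most genes, with a median standard error of 0.04 against 0.07 and a median level of 4394 normalized reads against 902. The median absolute changes were not matched for level or precision, and scatter adds to an absolute change, so they are not on an equal footing. The 3 vehicle and 3 T3 libraries did not overlap at 22 of the 49 members (44.9%), against 54.9% of all genes tested. The T3 libraries were the higher at 10 of these members and the lower at 12, where the shares of all genes tested were 28.4% and 26.5%. The genes that rose were Eif4e3, Eif6, Eif4g3, Eif4e2, Eif2b4, Eif2s2, Eif1 and Eif2b2, and the genes that fell were Eif4b, Eif2b1, Eif2a, Eif3f, Eif3i, Eif3e, Eif3l, Eif3m, Eif3h, Eif3k and Eif4ebp2. The number that fell was 6 without vehicle replicate 2, and 7 without T3 replicate 1 or T3 replicate 2. The split of 8 higher to 11 lower became 7 to 13 with upper-quartile scaling and 7 to 15 with equal column totals, where that of all genes went from 3135 to 2716 to 2616 to 3474 and 2442 to 3851.

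**Figure D1:**
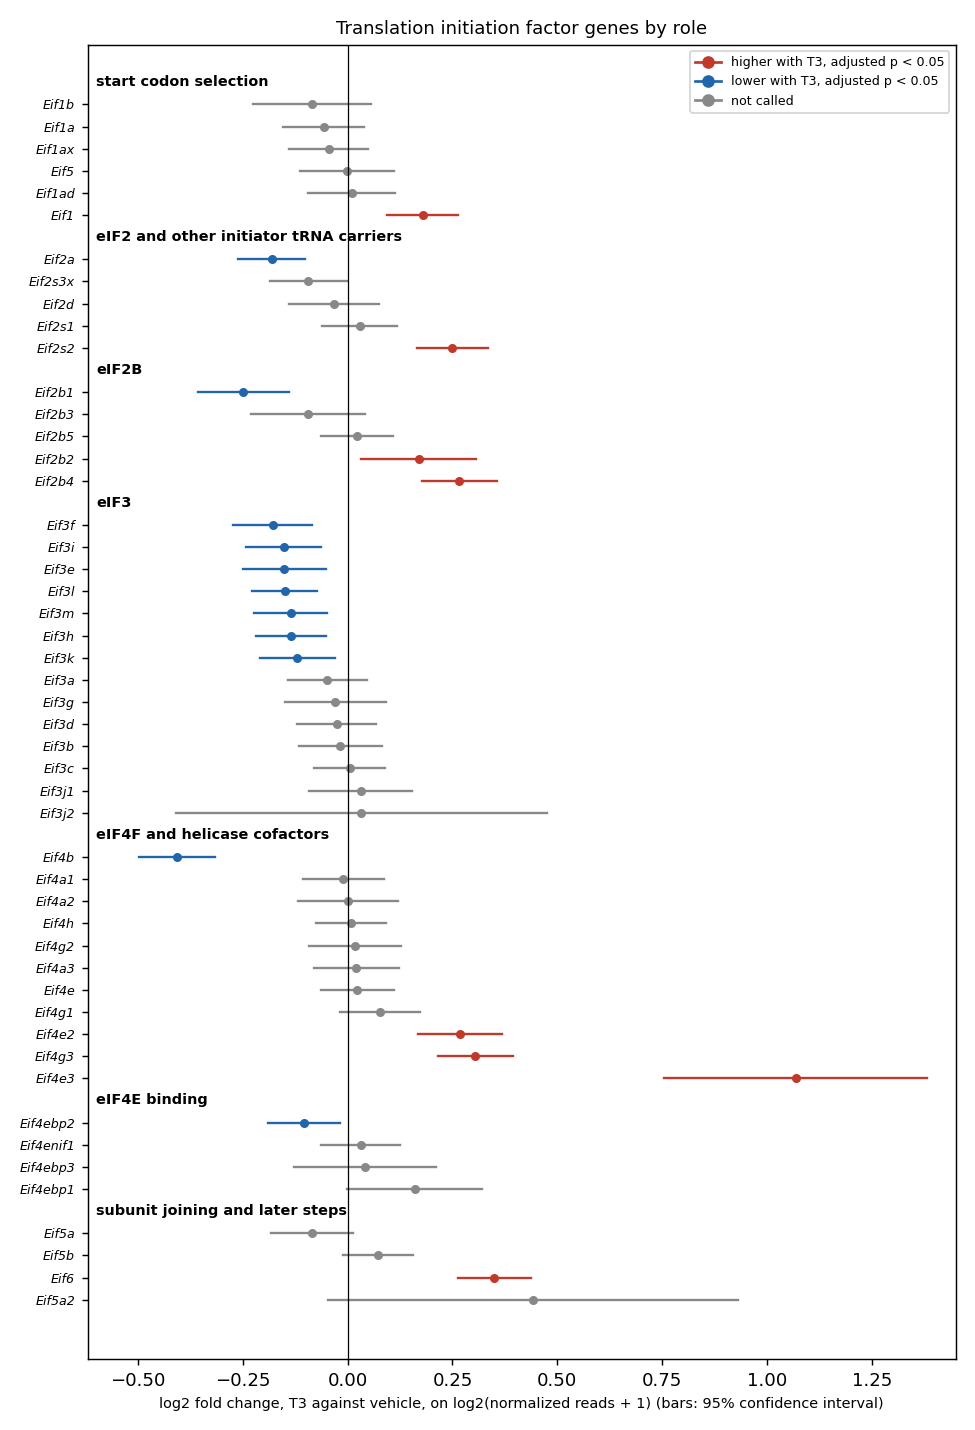
Log2 fold change of each tested initiation factor gene, T3 against vehicle (x axis, on log2(normalized reads + 1)), with 95% confidence intervals from limma, grouped by role (3 libraries per group). Most genes lie near 0, 7 of the 14 eIF3 genes were called lower, and Eif4e3 alone exceeded a log2 change of 1, at 1.07.

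Messages of many ribosomal proteins and translation factors begin with an unbroken run of pyrimidines (C and T), through which mTORC1 controls their translation. Windows of 50 bases around the annotated start, 30 before it and 20 from it on, so that the start is base 31, were read from RefSeq promoters of GRCm38.p6 for the 40 members that matched by gene ID (at the first start listed where a gene has several). No entry was found for Eif1-ps3, Eif1a, Eif2b3, Eif3e, Eif3h, Eif3i, Eif3j2, Eif4e1b, Eif4e3, Eif4ebp1, Eif4ebp3, Eif4g2 and Eif6. The windows below are those of 5 genes that fell, of 3 that rose and of 2 uncalled genes with long runs, printed 5′ to 3′ with the longest pyrimidine run in capitals, or the first of them where runs tie (Eif4b, Eif2s2 and Eif4e2).
Eif4b (chr15:102073743-102073792, plus strand): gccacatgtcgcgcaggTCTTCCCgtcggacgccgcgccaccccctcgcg
Eif3f (chr7:108934385-108934434, plus strand): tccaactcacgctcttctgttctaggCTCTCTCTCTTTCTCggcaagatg
Eif3l (chr15:79075193-79075242, plus strand): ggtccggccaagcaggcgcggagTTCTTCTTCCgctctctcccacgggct
Eif3m (chr2:105017008-105017057, minus strand): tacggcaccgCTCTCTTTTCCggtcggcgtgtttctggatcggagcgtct
Eif3k (chr7:28981869-28981918, minus strand): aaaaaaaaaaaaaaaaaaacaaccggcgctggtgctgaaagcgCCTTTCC
Eif2s2 (chr2:154892887-154892936, minus strand): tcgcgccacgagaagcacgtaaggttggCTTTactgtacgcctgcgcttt
Eif4e2 (chr1:87213881-87213930, plus strand): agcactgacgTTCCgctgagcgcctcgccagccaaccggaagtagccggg
Eif2b2 (chr12:85219451-85219500, plus strand): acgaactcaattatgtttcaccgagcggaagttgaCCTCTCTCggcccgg
Eif2s3x (chrX:94212632-94212681, minus strand): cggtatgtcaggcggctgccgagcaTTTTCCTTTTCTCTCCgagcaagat
Eif2b5 (chr16:20498787-20498836, plus strand): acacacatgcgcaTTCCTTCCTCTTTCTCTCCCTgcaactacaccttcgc

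The longest run spanned the annotated start in Eif3f (15 bases), Eif3l (10), Eif2s3x (16) and Eif2b5 (21), and lay before it in Eif3m (11). Eif4b held 1 run of 7 bases before the start and another of 7 after it. Of the members that fell and matched, 3 of 8 held a run of at least 8 bases (37.5%), beside 1 of 6 that rose (Eif2b2) and 3 of 24 that were not called (Eif2s3x, Eif2b5 and Eif4enif1, 12.5%). Such a run was held by 19.98% of all 27025 RefSeq promoters, and by 19.0% of those of the genes tested. The share was 22.5% of all 40 matched members (9 genes, among them the untested Eif2c5 and Eif2s3y). In the fallen genes not printed above the longest run was 5 bases (Eif2b1), 4 (Eif2a) and 2 (Eif4ebp2). The runs counted here are read on the sense strand and need not begin at the first transcribed base. The palindrome CACGTG, which reads the same on both strands and is the E-box of Myc and the circadian factors, occurred within the 300 promoter bases of 8 members (20%, against 10.4% of the genes tested). They were Eif3f and Eif3k, which fell, and the uncalled Eif1b, Eif3a, Eif4a1, Eif4h, Eif4g1 and Eif5a2. These windows were chosen after values and sequences were seen, and the counts are a description with no test.

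The eIF4F group, which recognises the cap and opens the leader, held both ends of the range. Eif4b encodes a cofactor of the eIF4A helicase (gene ID 75705, GRCm38 chromosome 15, 102073773 to 102097173, 15 exons). It stood at 32841, 32230 and 33363 normalized reads with vehicle, and at 24813, 24383 and 25061 with T3. Each group was tight and they were far apart, with a fall by 0.41 on the log2 scale (SE 0.04, limma adjusted p = 3.4e-05), or 1.33-fold. Per kb of exon, the scale used here to compare levels between genes, it went from 8514 to 6422.5. Eif4h, a shorter cofactor of the same helicase, was listed at 14346, 14074 and 14501 with vehicle and 14182, 14257 and 14749 with T3 (adjusted p = 0.869, 95% interval of the log2 change -0.08 to 0.09). As a description, the level of Eif4b per kb relative to that of Eif4h was 1.43 ± 0.00402 with vehicle and 1.07 ± 0.0166 with T3 (SD, n = 3).

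Among the cap-binding proteins Eif4e3 and Eif4e2 rose and Eif4e was not called. Eif4e3, a cap-binding relative of eIF4E (gene ID 66892, chromosome 6, 99625137 to 99666771), was listed at 107, 140 and 146 with vehicle and at 303, 282 and 239 with T3. Every T3 library was above every vehicle library, and the rise was 2.10-fold (log2 1.07, SE 0.14, adjusted p = 0.000216). Eif4e2, which encodes the cap-binding repressor also called 4EHP, rose 1.20-fold, from 2984 ± 142 to 3593 ± 86.1 (adjusted p = 0.00094). Eif4e itself, the general cap-binding factor, stood at 2413, 2450 and 2372 with vehicle and 2460, 2396 and 2497 with T3 (adjusted p = 0.655, 95% interval -0.06 to 0.11). Of the summed level per kb of these cap-binding genes, Eif4e3 made up 3.48% ± 0.515 with vehicle and 6.47% ± 0.692 with T3, and Eif4e 56.0% ± 1.60 and 50.4% ± 1.27 (SD, n = 3). Even after its rise Eif4e3 remained the least abundant tested gene of the group, at 109 normalized reads per kb beside 850 for Eif4e. Eif4e1b, a relative of Eif4e, was listed at 0 throughout.

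Among the scaffolds that join the cap complex to the ribosome, Eif4g3 rose and the larger pools did not pass the test. Eif4g3 (gene ID 230861, chromosome 4, 137993456 to 138207079, 36 exons) was listed at 2898, 3000 and 3065 with vehicle and 3592, 3692 and 3785 with T3, without overlap, a rise of 1.23-fold (log2 0.30, SE 0.04, adjusted p = 0.000219). Eif4g1, the main scaffold, stood at 32020, 30633 and 32205 with vehicle and 33706, 33148 and 33210 with T3, so that the groups did not overlap either, but its log2 difference of 0.08 was not called (adjusted p = 0.167). Per kb Eif4g3 was at 0.0810 ± 0.00322 of the level of Eif4g1 with vehicle and 0.0948 ± 0.00322 with T3. Eif4g2, a scaffold that lacks the eIF4E-binding site, was listed at 37369 to 41040 with vehicle and 38968 to 40273 with T3, with overlapping groups. None of the helicase genes passed the test. Eif4a1, the most abundant gene of the group per kb, was at 17144, 17793 and 18660 with vehicle and 17845, 17508 and 17843 with T3, the groups overlapped, and the 95% interval of its log2 change was -0.11 to 0.09. Eif4a2 and Eif4a3, the latter a part of the exon junction complex, had log2 differences of 0.0014 and 0.02, also uncalled. Eif4a1 and Eif4a2 are close paralogs whose reads the counting could have split, as are Eif1a with Eif1ax and Eif5a with Eif5a2, and the labels used here do not say how strand was used in counting.

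The start codon group sets how strictly AUG is chosen. Eif1, which guards against wrong start codons (gene ID 20918, chromosome 11, 100319994 to 100322096), was listed at 7877, 8124 and 8359 with vehicle and 9303, 9105 and 9160 with T3. The groups did not overlap, and the rise of 1.13-fold was called (log2 0.18, SE 0.04, adjusted p = 0.0036). Eif5, the protein that triggers GTP hydrolysis on eIF2 and opposes eIF1 at the start codon, stood at 19942, 19221 and 17788 with vehicle and 18509, 18788 and 19563 with T3, with overlapping groups and a log2 difference of -0.0011. The near copy Eif1b, at 969 to 1099 with vehicle and 910 to 991 with T3, was not called (adjusted p = 0.305), and it shares sequence with Eif1, so reads of this pair are uncertain. Eif1a, Eif1ax and Eif1ad, which encode eIF1A and a relative, had log2 differences of -0.06, -0.05 and 0.01, none of them called, although Eif1a was called lower with equal column totals (log2 -0.12, adjusted p = 0.0422). Per kb, averaged over all libraries, Eif1 led the group at 7135, followed by Eif5 at 4783 and Eif1ax at 3574. The library ranges of neighbours in this order overlapped only for Eif1b and Eif1ad.

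Of the subunits of eIF2 the beta subunit rose and the others were not called, and the difference between subunits was not tested. Eif2s2, the beta subunit (gene ID 67204, chromosome 2, 154871410 to 154892906), was listed at 4613, 4721 and 4674 with vehicle and 5373, 5706 and 5580 with T3, a rise of 1.19-fold without overlap (log2 0.25, SE 0.04, adjusted p = 0.000508). Eif2s1, the alpha subunit that stress kinases phosphorylate, was at 4277 to 4479 and 4335 to 4595, with overlapping groups (adjusted p = 0.590, 95% interval of the log2 change -0.06 to 0.12). Eif2s3x, the X-linked gamma subunit, was at 2636, 2772 and 2779 with vehicle and 2634, 2519 and 2519 with T3. Its T3 libraries all lay below the lowest vehicle library, T3 replicate 1 only just, but the log2 difference of -0.09 was not called (adjusted p = 0.0923, but 0.0108 with equal column totals, 0.0234 with upper-quartile scaling and 0.0497 without vehicle replicate 1). The Y-linked copy Eif2s3y was listed at 0 in all 6 libraries. The level of Eif2s2 per kb relative to Eif2s1 was 1.35 ± 0.0490 with vehicle and 1.57 ± 0.0699 with T3, and relative to Eif2s3x 2.44 ± 0.0497 and 3.10 ± 0.169 (SD, n = 3). Eif2a encodes a separate protein that can also carry initiator transfer RNA. It fell 1.13-fold, from 4637 ± 79.96 to 4090 ± 60.5 (adjusted p = 0.00253), and Eif2d, another non-canonical carrier, was not called (log2 -0.03).

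The subunits of eIF2B, the exchange factor that stress signalling inhibits, also went both ways. In its regulatory subcomplex Eif2b1 (alpha) fell 1.19-fold, from 3149 ± 109 to 2651 ± 135 (adjusted p = 0.00236), while Eif2b4 (delta) rose. Eif2b4 (gene ID 13667, chromosome 5, 31187558 to 31193139) was listed at 1832, 1886 and 1927 with vehicle and 2255, 2242 and 2291 with T3, a rise of 1.20-fold without overlap (log2 0.27, SE 0.04, adjusted p = 0.000484). Per kb the level of Eif2b4 relative to Eif2b1 was 0.551 ± 0.00518 with vehicle and 0.788 ± 0.0335 with T3. Eif2b2 (beta) rose 1.12-fold with overlapping groups (adjusted p = 0.046), a call lost with each of the other scalings tried, with no filter on low values, with no variance trend and without vehicle replicate 1, vehicle replicate 2, T3 replicate 1 or T3 replicate 3. The genes of the catalytic pair, Eif2b5 (epsilon) and Eif2b3 (gamma), were not called. Eif2b5, the most abundant eIF2B gene per kb, stood at 4130, 4066 and 4316 with vehicle and 4259, 4170 and 4279 with T3, with overlapping groups. The summed level of the 5 genes per kb was 4941 ± 149.7 with vehicle and 4959 ± 146 with T3.

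**Figure D2:**
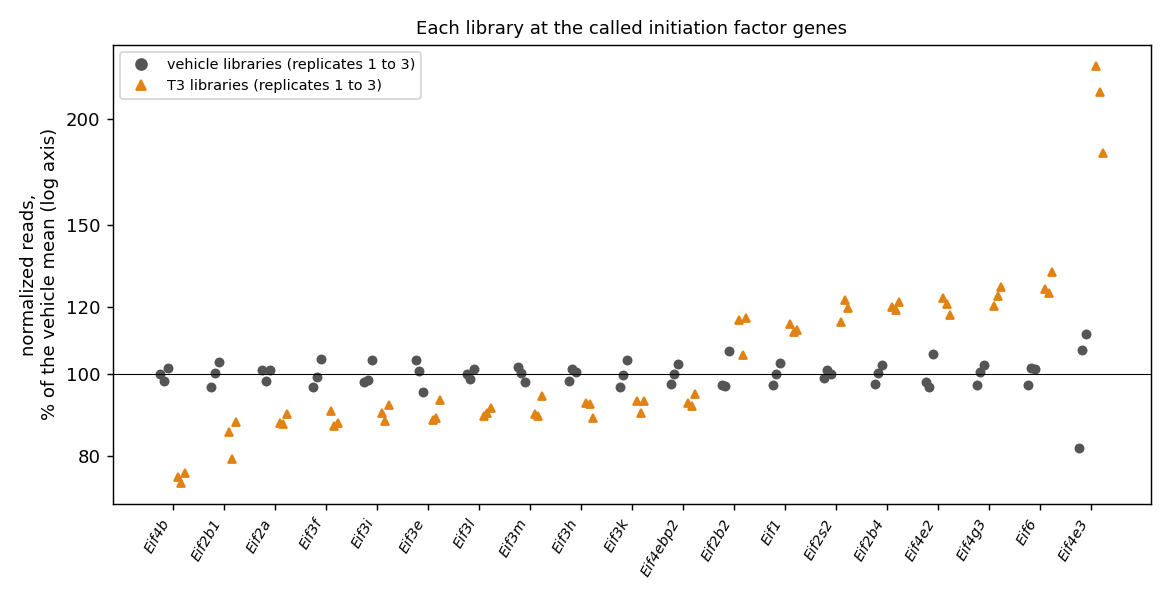
Normalized reads of each library as a percentage of the vehicle mean (y axis, log scale) at the 19 called initiation factor genes, ordered by fold change, with circles for vehicle and triangles for T3 libraries. The groups overlap at Eif2b2 alone, and the T3 means differ from the vehicle mean by between -24.6% (Eif4b) and 27.5% (Eif6) at every gene shown but Eif4e3.

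Among the 14 genes of eIF3, the largest initiation factor, 7 fell and none rose (50%, where 20.8% of all genes tested were called lower). The fallen genes were Eif3e, Eif3f, Eif3h, Eif3i, Eif3k, Eif3l and Eif3m, with log2 changes between -0.18 and -0.12. Eif3f, the most abundant of them per kb (gene ID 66085, chromosome 7, 108934415 to 108941942), was listed at 14729, 15128 and 15892 with vehicle and 13796, 13253 and 13342 with T3. The groups did not overlap, and the fall was 1.13-fold (log2 -0.18, SE 0.04, adjusted p = 0.00658). For Eif3l the fall was 1.11-fold, from 10059.7 ± 139 to 9064.0 ± 107 (adjusted p = 0.0062), and for Eif3i 1.11-fold, from 7695 ± 257 to 6920.3 ± 153 (adjusted p = 0.0107). At all 7 fallen genes every T3 library was below every vehicle library, which was so at 26.5% of all genes tested. The number of fallen eIF3 genes was 3 without vehicle replicate 2, 4 without T3 replicate 1 or T3 replicate 2, 4 with no variance trend and 2 at an adjusted p under 0.01. Eif3f and Eif3l were called lower under every alternative run.

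The subunits of eIF3 divide into an octamer of a, c, e, f, h, k, l and m, which forms the body of the complex, and subunits attached to it. Of the 8 octamer genes 6 fell (75%, where 20.8% of all genes tested were called lower). Of the other 6 genes Eif3i alone fell (16.7%), a division chosen after the values were seen. The octamer genes Eif3e, Eif3k and Eif3m lost their calls with no variance trend and without vehicle replicate 2, T3 replicate 1 or T3 replicate 2. Eif3e also lost its call without vehicle replicate 1 (adjusted p = 0.0568). Eif3k also lost its call without vehicle replicate 3 (adjusted p = 0.0938) and with the replicate block (0.0544). Eif3h lost its call without vehicle replicate 2. Eif3a and Eif3c, the octamer's largest subunits and its scaffold, were not called, although Eif3a was called lower with equal column totals (log2 -0.11, adjusted p = 0.0417), which made 8 fallen eIF3 genes. Eif3c stood at 15174, 15022 and 15789 with vehicle and 15265, 15506 and 15349 with T3 (95% interval of the log2 change -0.08 to 0.09), and Eif3a at 17590 to 18931 and 17237 to 17706. Eif3b and Eif3g, which with Eif3i form a module attached to the body, had log2 differences of -0.02 and -0.03, and Eif3d, a cap-binding subunit, one of -0.03. Eif3j1, the loosely bound subunit, had 962 to 1078 normalized reads with vehicle and 1022 to 1048 with T3. Its single-exon relative Eif3j2 had 40 to 64 over all libraries, and reads of this pair are uncertain. Summed per kb, the eIF3 genes went from 69990.4 ± 1221 with vehicle to 64999 ± 913 with T3, a difference of -7.13%, with no test of its own. Relative to Eif3b, the level of Eif3f per kb was 2.23 ± 0.0504 with vehicle and 2.00 ± 0.0664 with T3.

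Per kb the 12 core eIF3 genes lay close together, from 9527 for Eif3f to 3437 for Eif3a over all libraries, and Eif3j1 stood apart at 433. Eif3f and Eif3h led the order, and each stood above the next gene in all libraries. Eif3i and Eif3k, at 6589 and 6429, overlapped in their library ranges, as did the neighbours Eif3k and Eif3e, Eif3c and Eif3l, Eif3l and Eif3g, Eif3g and Eif3b, and Eif3m and Eif3d.

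**Figure D3:**
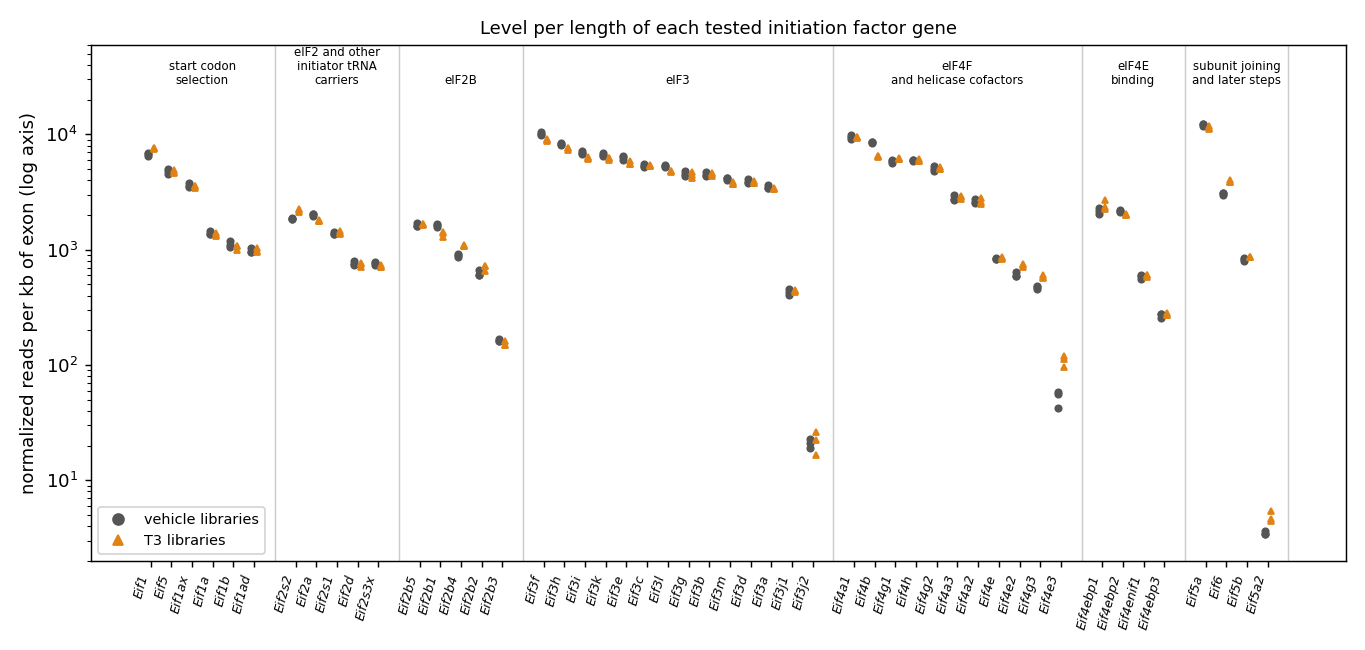
Level of each tested initiation factor gene in normalized reads per kb of exon (y axis, log scale), each symbol 1 library, genes ordered by level within each role. The eIF3 genes other than Eif3j1 and Eif3j2 span a narrow band between 3330.2 and 10545.5 over all libraries, and Eif5a2 is the lowest gene, at 3.41 to 5.41.

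The eIF4E-binding proteins hold eIF4E away from the scaffold until mTORC1 phosphorylates them. Eif4ebp1 was listed at 2008, 2107 and 2265 with vehicle and 2295, 2649 and 2198 with T3. T3 replicate 2 was the highest library, T3 replicate 3 lay within the vehicle range, and the log2 difference of 0.16 was not called (adjusted p = 0.0984, but 0.0337 without T3 replicate 3). Eif4ebp2 went from 3862 ± 105 to 3592 ± 60.2, called lower by 1.07-fold (adjusted p = 0.048), a call lost with no filter on low values, with no variance trend, with robust moderation, with a replicate block and without vehicle replicate 2, vehicle replicate 3, T3 replicate 1 or T3 replicate 2. Eif4ebp3, at 292 to 327 over all libraries, and Eif4enif1, which carries eIF4E into the nucleus and to RNA granules, were not called. Per kb the level of Eif4ebp1 relative to Eif4ebp2 lay between 0.973 and 1.04 with vehicle and between 1.09 and 1.36 with T3, without overlap. Relative to Eif4e, the level of Eif4ebp1 was 2.59 ± 0.189 with vehicle and 2.86 ± 0.346 with T3 (SD, n = 3), with overlapping groups. That of Eif4ebp2 relative to Eif4e was 2.58 ± 0.100 and 2.36 ± 0.0212, without overlap. These ratios were not tested.

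Genes of the later steps were led by Eif6, whose protein keeps large subunits from joining prematurely and takes part in their maturation (gene ID 16418, chromosome 2, 155819837 to 155826925). It was listed at 4458, 4660 and 4646 with vehicle and 5782, 5719 and 6047 with T3. The groups were far apart, with a rise of 1.27-fold (log2 0.35, SE 0.04, adjusted p = 7.57e-05). Eif5b, which joins the subunits, was at 6178 to 6540 with vehicle and 6676 to 6786 with T3, without overlap but not called (log2 0.07, adjusted p = 0.138). Eif5a, the hypusine-bearing factor that also acts in elongation, had the highest level per kb of all members, 11811 over all libraries. Its libraries stood at 23858, 24897 and 24834 with vehicle and 22695, 22595 and 24056 with T3, with overlap at T3 replicate 3, and it was not called (log2 -0.09, adjusted p = 0.138, but 0.0414 with upper-quartile scaling, 0.0458 without T3 replicate 3 and 0.0202 with equal column totals). Its paralog Eif5a2 was nearly silent, at 17, 17 and 18 normalized reads with vehicle and 23, 22 and 27 with T3 (adjusted p = 0.128, but 0.00955 with no variance trend).

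The members together made up 1.37% ± 0.00513 of the column total with vehicle and 1.28% ± 0.0257 (SD, n = 3) with T3. Their summed reads went from 391096 ± 3626 to 380715 ± 4614, a difference of -2.65%, while the column totals differed by 4.70% in the other direction. In the authors' deposited table, with its own adjusted p under 0.05 (35.1% of its genes), 16 of these members were called, all of them also called here in the same direction. The calls made here only were Eif2b2, Eif3k and Eif4ebp2, with adjusted p-values of 0.0875, 0.0678 and 0.133 in the authors' deposited table.

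Genes that act on the same steps were described by lists. Among 12 genes of the eIF2 kinases, the phosphatase regulators and their targets, 7 rose and 2 fell (75% called, where 44.8% of all genes tested were, 24.0% higher and 20.8% lower), with a median log2 fold change of 0.25. Eif2ak3, which encodes PERK, the eIF2 kinase of the endoplasmic reticulum, was listed at 1086, 1129 and 1071 with vehicle and 1935, 1768 and 1632 with T3, and rose 1.62-fold (adjusted p = 1.89e-05). Eif2ak2, the double-stranded RNA kinase PKR, rose 1.36-fold (adjusted p = 4.16e-05), and Dnajc3, an inhibitor of these kinases, rose 1.32-fold (adjusted p = 3.13e-05). Ppp1r15b, the constitutive subunit that directs a phosphatase to eIF2, rose 1.18-fold (adjusted p = 0.000416). The kinases did not move alike, since Eif2ak4 (GCN2) was called lower and Eif2ak1 (HRI) was not called. The number that rose was 6 to 8 when single libraries were left out, and the number that fell was 0 without vehicle replicate 1, vehicle replicate 2, T3 replicate 1 or T3 replicate 3, and 1 with no variance trend.

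Among 23 regulators of mTORC1, of the Mnk kinases and of cap-dependent initiation, 10 fell and 1 (Mtor) rose, with a median of -0.06. The share called in either direction, 47.8%, was near the 44.8% of all genes tested. By direction the calls were uneven, where 24.0% of all genes tested were called higher and 20.8% lower. Deptor, an inhibitor within mTOR complexes, fell 1.37-fold, from 1584 ± 50.3 to 1158 ± 43.3 (adjusted p = 5.87e-05). Tsc2 and Tsc1, which encode the complex that restrains mTORC1, fell 1.18-fold and 1.12-fold (adjusted p = 0.000744 and 0.0186), and Denr, a partner in reinitiation, 1.12-fold (adjusted p = 0.00988). The other genes called lower were Mlst8, Mknk2, Pdcd4, Paip2, Pabpc1 and Paip2b (adjusted p = 0.0216 to 0.0497). Rptor, Rheb and Rps6kb1 were not called, and the activity of mTORC1 was not tested. The call of Tsc1 was lost without vehicle replicate 1 (adjusted p = 0.0542) and without T3 replicate 1 (0.0785). The number that fell was 3 without T3 replicate 1, 4 without T3 replicate 2 or vehicle replicate 2, 6 without vehicle replicate 1, 7 without vehicle replicate 3 and 8 without T3 replicate 3. It was 5 with the replicate block, 6 with no variance trend and 3 at an adjusted p under 0.01. The number that rose was 0 with upper-quartile scaling, equal column totals, no variance trend, an adjusted p under 0.01, and without vehicle replicate 2, T3 replicate 1 or T3 replicate 3, and 2 without vehicle replicate 1.

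Among 14 genes of elongation and termination 4 rose and 4 fell (57.1% called, against 44.8% of all genes tested), with a median of -0.01. Eef1b2 and Eef1g, which encode subunits of the factor that recharges eEF1A, fell 1.18-fold each (adjusted p = 0.00183 and 0.00217), and Eefsec, the selenocysteine elongation factor, 1.22-fold (adjusted p = 0.0012). Dohh, an enzyme that completes the hypusine of eIF5A, rose 1.21-fold (adjusted p = 0.00147). The number that rose was 1 without T3 replicate 1 or at an adjusted p under 0.01, and 2 without T3 replicate 2 or vehicle replicate 2. The split of 4 higher to 4 lower became 2 to 5 after upper-quartile scaling and 1 to 6 when column totals were made equal. Of 9 mitochondrial translation factors 2 rose and 1 fell (33.3% called, against 44.8% of all genes tested). Gfm1, a mitochondrial elongation factor, rose 1.27-fold (adjusted p = 0.00013), the initiation factor Mtif3 1.20-fold (adjusted p = 0.00791), and Mrrf, a ribosome recycling factor, fell 1.14-fold (adjusted p = 0.0241, but 0.0973 without vehicle replicate 2, 0.0933 without T3 replicate 2 and 0.0540 with the replicate block).

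**Figure D4:**
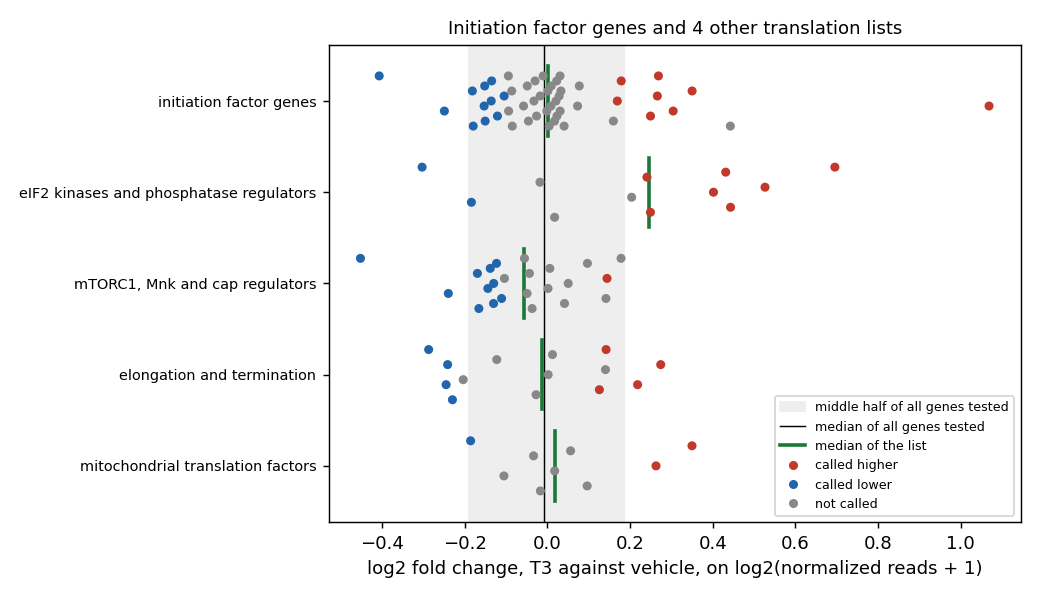
Log2 fold change, T3 against vehicle (x axis, on log2(normalized reads + 1)), of each tested initiation factor gene and of each gene of the 4 lists of related genes (rows), coloured by call; green bars are list medians, the black line the median of all genes tested and the grey band the middle 50% of them. Most of the initiation factor genes lie within the band, and the list of eIF2 kinases and phosphatase regulators has its median at 0.25.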

How the data were processed

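RNA of 6 organoid libraries, 3 per group, was sequenced after directional library preparation, per the labels' protocols. Reads were handled with STAR, Subread and DESeq2, per the submitters' processing notes, which give no versions here. The authors deposited normalized reads per gene on mm10, rounded to whole numbers, per the file headers. Since the authors scaled and rounded them, these values are treated as a score and not as counts, so no count model was used, and rounding limits the precision of low genes. The deposited log2 fold changes with their standard errors, and the deposited p-values, are the authors' own comparison of the groups, per the file headers.

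Genes that reached 10 normalized reads in 3 or more libraries were tested on log2(value + 1) with limma 3.58.1 (R 4.3.3), with a variance trend and Benjamini-Hochberg adjustment over 13052 genes, so fold changes of low genes are understated. The procedure was tested on simulated data, where it recovered 19 of 50 genes changed 1.25-fold (38%) and 42 of 50 changed 1.5-fold (84%). Of its 161 calls 3 were false. The scatter between simulated libraries was set in advance and not estimated from these libraries, so these shares need not hold for the members. Values per kb use the deposited gene length. Ratios of such values were computed for chosen pairs of genes and were not tested. The groups overlapped for the ratios of Eif4ebp1 to Eif4e, Eif2s3x to Eif2s1, Eif4a1 to Eif4a2, Eif1 to Eif5 and Eif3j1 to Eif3j2. Gene coordinates and exons were also read from the deposited columns, on mm10, with exons counted as the intervals listed for each gene. Alternatives covered scaling, filter, pseudocount, moderation, a replicate block, the threshold and leaving out each library.

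Members, roles and lists were chosen with earlier results of these data known. Library values are given for called members with an absolute log2 change of at least 0.3, for the 5 called members with the smallest p and for the most abundant member of each role per kb, and up to 4 called genes with the smallest p are named per list of related genes. Other genes named from the lists, and other genes given library by library, were chosen after their values were seen.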

Additional observations from a re-analysis of the deposited data

How the results depend on the processing

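Eif1, Eif2b4, Eif2s2, Eif4e2, Eif4e3, Eif4g3, Eif6, Eif2a, Eif2b1, Eif3f, Eif3l and Eif4b stayed called in the same direction under all 17 alternatives. The number of members called lower was 7 with no variance trend and 5 at an adjusted p under 0.01, and 6 to 12 without single libraries (higher 7 to 8). Over all genes 1753 were lower at 0.01, and without single libraries 2427 to 3140 were higher and 2070 to 2755 lower. For the genes of the related lists together, 14 higher and 17 lower became 10 higher and 20 lower with upper-quartile scaling, 9 higher and 22 lower with equal column totals, 9 higher and 7 lower at 0.01, and 9 to 14 higher and 8 to 14 lower without single libraries. Rescaling whole libraries moves the log2 changes of nearly all genes together by construction. Equal column totals lower the T3 values against vehicle, since T3 column totals were 4.70% higher. The median log2 change of all genes tested went from -0.0089 to -0.0547 with upper-quartile scaling and to -0.0749 with equal column totals. Leaving out a library leaves fewer samples, and a lower threshold is stricter by construction. Other causes of the shifts in these counts were not tested.

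With the replicate number as a replicate block, 8 members were higher and 9 lower (Eif3k and Eif4ebp2 lost their calls, adjusted p = 0.0544 and 0.0733). The related lists had 13 higher and 11 lower. Of the called genes named for their smallest p in each list, Mrrf lost its call (adjusted p = 0.0540). Over all genes the block gave 2933 higher and 2472 lower. Deviations of same-numbered libraries correlated at -0.07, 0.03 and -0.06, and those of differently numbered libraries at -0.05 to 0.09. With 3 libraries per group these values cannot show whether the numbers pair the libraries.

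The median log2 change of the members was -0.04 with upper-quartile scaling (all genes -0.05), -0.06 where column totals were made equal (all genes -0.07), and -0.01 to 0.02 without single libraries. Uncalled members near 0 changed sign with scaling and stayed uncalled. With upper-quartile scaling the values were -0.036 for Eif1ad, -0.017 for Eif2s1, -0.023 for Eif2b5, -0.041 for Eif3c, -0.015 for Eif3j1, -0.012 for Eif3j2, -0.045 for Eif4a2, -0.025 for Eif4a3, -0.023 for Eif4e, -0.028 for Eif4g2, -0.037 for Eif4h, -0.0052 for Eif4ebp3 and -0.015 for Eif4enif1. With equal column totals they were, in the same order, -0.057, -0.038, -0.043, -0.062, -0.035, -0.032, -0.065, -0.045, -0.043, -0.049, -0.057, -0.025 and -0.036. With trimmed-mean factors Eif1ad was at -0.0017, Eif3c at -0.0067, Eif4a2 at -0.0098 and Eif4h at -0.0024. Without single libraries the changes ran from -0.021 to 0.042 for Eif1ad, -0.040 to 0.015 for Eif3b, -0.0099 to 0.026 for Eif3c, -0.050 to 0.0080 for Eif3d, -0.072 to 0.014 for Eif3g, -0.0071 to 0.075 for Eif3j1, -0.12 to 0.21 for Eif3j2, -0.039 to 0.022 for Eif4a1, -0.048 to 0.039 for Eif4a2, -0.0038 to 0.060 for Eif4a3, -0.00098 to 0.067 for Eif4ebp3, -0.013 to 0.055 for Eif4g2, -0.0087 to 0.020 for Eif4h and -0.047 to 0.035 for Eif5. Low values limit Eif3j2 and Eif5a2, whose standard errors were 0.20 and 0.22 against a member median of 0.04.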
